A study of Mus musculus with 12 samples.

Results

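The question was in which genes the response of the liver to diet differed between mice with and without Shp in hepatocytes. Liver RNA was sequenced from C57BL/6 mice aged 5 months in 4 groups of 3 livers, and all 12 of the 12 libraries of the series were used. The WT groups received chow or a diet that the labels call HFCF, and the other groups, labelled Shp Hep-/-, received the same diets and are called KO here. The interaction was the KO diet effect (HFCF minus chow) minus the WT diet effect, on the log2 scale. It was tested in 14736 of the 15846 genes in the count table, those with enough counts, in 1 fit of all libraries. A positive value means that HFCF raised the gene more, or lowered it less, in KO than in WT, and a negative value the reverse. No source used here gave the promoter that drove the deletion, the content of HFCF or the time on the diet, and no allele other than the Shp deletion was named.

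Shp (gene Nr0b2) is an orphan nuclear receptor that has a ligand-binding domain and no DNA-binding domain, and it represses genes by binding other nuclear receptors and transcription factors. In liver it is induced by the bile acid receptor FXR and is known for restraining bile acid synthesis, and it has also been tied to lipid and glucose metabolism and to inflammatory signalling. A fat-loaded liver is known to raise genes of fatty acid synthesis and lipid droplets, to lower cholesterol synthesis genes when dietary cholesterol is supplied, and in time to raise macrophage and matrix genes.

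Libraries held 13967116 to 18324134 counts. Nr0b2 stood at 22.4 to 53.4 CPM (counts relative to library size, with TMM scaling) over the 6 WT livers and at 0.21 to 1.01 CPM over the 6 KO livers, so its level separated the labels. WT HFCF replicate 1 differed more from its group than the other livers did, at 32.17 and 34.42 against its partners and 11.21 between them by chi-square over degrees of freedom. The labelled tissue was checked on 20 hepatocyte markers, whose summed level was 54600 to 59200 CPM in WT on chow, 40500 to 47400 in WT HFCF, 42200 to 51900 in KO chow and 45700 to 48400 in KO HFCF livers. Macrophage and monocyte markers (22 genes) summed to 313 to 391, 331 to 665, 640 to 691 and 822 to 921 CPM in the same order, the top of WT HFCF being replicate 1. In bulk liver RNA, fewer cells of a type and less RNA per cell cannot be told apart.

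Several called genes have short regulatory sequences in their promoters that are known as binding sites of stress and acute phase factors, and 6 promoters are shown here because each holds such a motif and belongs to a gene with a called positive interaction. Saa1, Asns and Saa2 had the largest positive interactions among the called genes named here, at log2 values of 4.09, 4.08 and 4.03. The 3 chaperone genes shown did not, and Enho, Fgl1 and Nnmt had larger ones than these chaperone genes. Each is a RefSeq window on GRCm38.p6 (mm10) from 250 bases before to 50 after a transcription start, and 88 of the 117 called genes had such a window. Hspa5 (chr2:34771840-34772139, plus strand), Hsp90b1 (chr10:86705395-86705694, minus strand) and Calr (chr8:84846882-84847181, minus strand) encode ER chaperones, and capitals mark the ER stress response element, CCAAT and CCACG 9 bases apart, on either strand. Asns (chr6:7693160-7693459, minus strand) encodes asparagine synthetase, and capitals mark TGATGNAA, the element bound by ATF4. Saa1 (chr7:46742931-46743230, minus strand) and Saa2 (chr7:46751583-46751882, plus strand) encode serum amyloid A, and capitals mark TTGCNNAA, a C/EBP site. All sequences run 5′ to 3′ on the strand of the gene.
Hspa5: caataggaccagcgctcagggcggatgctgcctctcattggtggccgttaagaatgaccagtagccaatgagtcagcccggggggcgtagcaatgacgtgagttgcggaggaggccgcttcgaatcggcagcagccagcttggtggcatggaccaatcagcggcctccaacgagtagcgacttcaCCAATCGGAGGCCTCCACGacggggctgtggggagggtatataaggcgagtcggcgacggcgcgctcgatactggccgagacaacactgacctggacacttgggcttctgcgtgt
Hsp90b1: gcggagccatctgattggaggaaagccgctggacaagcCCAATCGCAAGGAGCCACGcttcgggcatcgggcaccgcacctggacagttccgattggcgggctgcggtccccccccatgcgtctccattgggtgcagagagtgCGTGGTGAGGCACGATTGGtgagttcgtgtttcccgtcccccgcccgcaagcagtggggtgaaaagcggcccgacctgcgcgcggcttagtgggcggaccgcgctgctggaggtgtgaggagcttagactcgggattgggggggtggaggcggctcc
Calr: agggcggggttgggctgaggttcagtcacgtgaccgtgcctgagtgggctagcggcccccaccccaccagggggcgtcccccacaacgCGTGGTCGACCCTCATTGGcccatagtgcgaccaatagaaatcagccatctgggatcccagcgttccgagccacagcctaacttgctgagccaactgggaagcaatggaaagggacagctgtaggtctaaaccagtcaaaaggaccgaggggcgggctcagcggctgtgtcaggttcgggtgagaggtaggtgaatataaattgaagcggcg
Asns: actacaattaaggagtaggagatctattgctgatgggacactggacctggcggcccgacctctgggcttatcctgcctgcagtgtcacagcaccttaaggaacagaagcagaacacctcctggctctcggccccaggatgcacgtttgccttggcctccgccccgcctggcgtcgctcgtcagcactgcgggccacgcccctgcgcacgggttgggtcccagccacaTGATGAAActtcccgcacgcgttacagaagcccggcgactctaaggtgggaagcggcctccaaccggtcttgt
Saa1: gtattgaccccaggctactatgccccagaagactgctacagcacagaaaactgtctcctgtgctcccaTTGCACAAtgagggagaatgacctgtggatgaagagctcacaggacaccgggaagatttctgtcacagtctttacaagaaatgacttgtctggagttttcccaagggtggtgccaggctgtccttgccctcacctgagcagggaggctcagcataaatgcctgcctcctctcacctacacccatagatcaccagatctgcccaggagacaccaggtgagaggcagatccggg
Saa2: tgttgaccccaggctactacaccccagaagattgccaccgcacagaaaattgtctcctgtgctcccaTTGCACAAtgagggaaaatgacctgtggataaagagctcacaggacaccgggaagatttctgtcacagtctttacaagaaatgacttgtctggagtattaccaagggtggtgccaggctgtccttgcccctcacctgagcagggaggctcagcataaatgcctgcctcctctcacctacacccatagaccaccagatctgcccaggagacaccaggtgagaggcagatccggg

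The ER stress response element began 65 bases before the start in Hspa5, 162 before it in Calr, and 212 and 107 before it in Hsp90b1. The window of Dnajb11, another called ER chaperone gene, did not hold it. It stood in 39 of all 32851 windows (0.119%) and in those of 17 of 9611 tested genes. Of the 36 genes with a window and a called positive interaction, 3 held it, and of the 52 with a called negative interaction, 0. Over the 17 tested genes with the element, the median diet effect was -0.36 in WT and 0.10 in KO, beside 0.00 in each over all tested genes with a window. The 17 include Hspa5, Calr and Hsp90b1, which were printed because they were called, so these medians are not independent of that choice. The TGATGNAA match lay 23 bases before the Asns start, and this motif occurred in 3.97% of windows. TTGCNNAA occurred in 10.8% of windows and lay 182 and 183 bases before the starts of Saa1 and Saa2. It was not in the windows of Itih3 and Itih4, which are called acute phase genes too, and its share was much the same in genes with a called positive interaction (6 of 36, 16.7%) and a called negative one (8 of 52, 15.4%). No printed window held more than 1 of these 3 motifs. Also searched on both strands were TTCNNNGAA (STAT, 8.3% of windows), TCACNCCAC (sterol response element, 1.24%), CAAGGTCA (LRH-1, 1.56%) and the LXR element DR4 (0.0152%). The sterol element was in 3 of the 36 positive called genes and 1 of the 52 negative ones, beside 1.5% of tested genes. TGATGNAA was in 3 and 0 of them, beside 2.75%, and TTCNNNGAA in 3 and 6, beside 8.58%. CAAGGTCA and DR4 were in 0 of both. The Hsp90b1 window also held 1 sterol element match. A match is a description of the letters only.

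HFCF changed fewer genes in KO than in WT livers by the same test, and in 117 genes (0.794% of those tested) the 2 responses differed. In what follows, ± after a log2 value gives the standard error of edgeR's quasi-likelihood model, and p-values were adjusted by Benjamini-Hochberg across the 14736 genes, with a call under 0.05. The interaction was positive in 55 called genes (0.373%) and negative in 62 (0.421%). At an unadjusted p under 0.05 there were 1944 genes (13.2%), and DESeq2 called 344. The median size of a called interaction was 1.01 log2 units. HFCF raised 1144 genes (7.76%) and lowered 869 (5.9%) in WT livers, and raised 216 (1.47%) and lowered 174 (1.18%) in KO livers, so 2013 (13.7%) and 390 (2.65%) were called in all. Between genotypes, KO livers differed from WT in 2289 genes (15.5%) on chow, 1432 higher (9.72%) and 857 lower (5.82%), and in 2814 (19.1%) on HFCF, 1558 higher (10.6%) and 1256 lower (8.52%). Without WT HFCF replicate 1 the diet calls were 1303 in WT and 776 in KO. The WT count was 1255 and 1100 without WT chow replicate 1 or 3, and the KO count 157 and 254 without replicate 1 or 2 of KO chow and 169 and 178 without replicate 1 or 2 of KO HFCF. The genotype count on chow was 1152 without WT chow replicate 3 and 1442 without KO chow replicate 2. Nothing in the labels says whether livers of 1 group came from separate litters or cages, so the p-values measure only the spread between these samples, which may in part be technical.

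Most called interactions were a WT response that was not called in KO. Of the 55 positive genes, 40 fell on HFCF in WT and were not called in KO, 13 rose in KO and were not called in WT, Calr fell in WT and rose in KO, and Itih4 was called in neither. Among the 62 negative genes, 48 rose in WT and were not called in KO, 11 fell in KO and were not called in WT, Fam151a and Srebf1 rose in both, and Gsta3 rose in WT and fell in KO. These counts divide the interaction by diet effects from the same libraries and are not separate evidence for it. Across all 14736 genes the KO diet effect rose by 0.292 log2 units per unit of the WT diet effect (Pearson r 0.38 over genes, which are not independent replicates). Error in the WT effects flattens such a slope, and their median standard error was 0.14 beside a median absolute effect of 0.20. The slope therefore does not measure how much weaker the KO response was. The 1144 genes raised in WT had a median of 0.62 there and 0.22 in KO, and the 216 genes raised in KO had 0.70 there and 0.52 in WT.

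**Figure D1:**
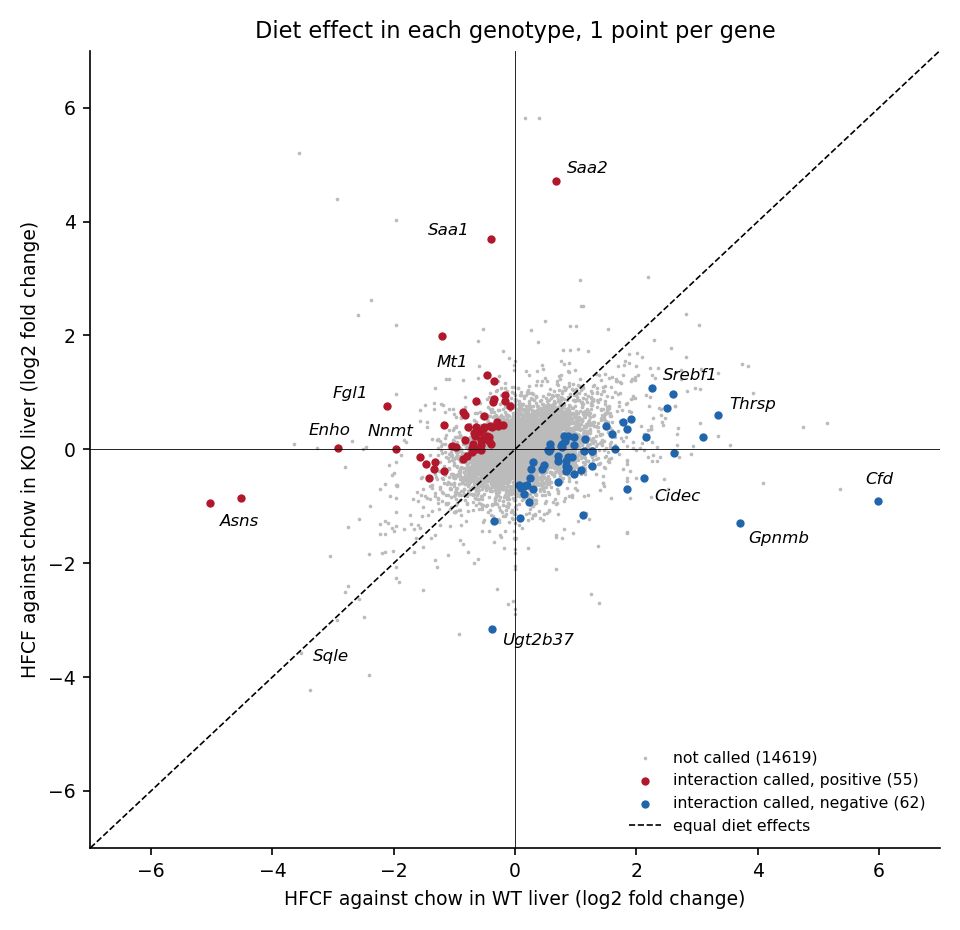
Log2 fold change of HFCF against chow in WT livers (x axis) and in KO livers (y axis), 1 point per tested gene, with genes called for the interaction in red (55 positive) and blue (62 negative) and a dashed line where both effects are equal. Red genes such as Asns and Enho lie left of the line, Enho near a KO effect of 0 and Asns below it. Blue genes such as Cfd and Gpnmb lie right of the line, Saa1 and Saa2 lie high on the y axis, and 1 gene lies outside the limits of ±7.

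By gene list, acute phase genes stood at the positive end and PPARG targets at the negative end. The median interaction was 0.90 over 28 acute phase genes and -1.0 over 15 PPARG and steatosis targets, beside 0.00 over all tested genes. Collagens and matrix genes (39 tested) had a median of -0.64 and B and plasma cell markers (18 tested) -0.65. Of those 18 markers the interaction was called in 0 by edgeR or limma voom and in 1, positive, by DESeq2, with 1 positive and 3 negative at an unadjusted p under 0.05. ER chaperone genes (30 tested) had a median of 0.30, and periportal and urea cycle genes (18 tested) 0.32. Cholesterol synthesis genes (23 tested) had a median diet effect of -1.0 in WT and -1.01 in KO. Leaving out each library in turn, the median ran from 0.73 to 1.06 for acute phase genes, from -1.15 to -0.66 for PPARG targets, from -0.82 to -0.46 for matrix genes, from -0.85 (without WT HFCF replicate 3) to -0.42 (without WT HFCF replicate 1) for B and plasma cell markers and from 0.24 to 0.38 for ER genes.

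**Figure D2:**
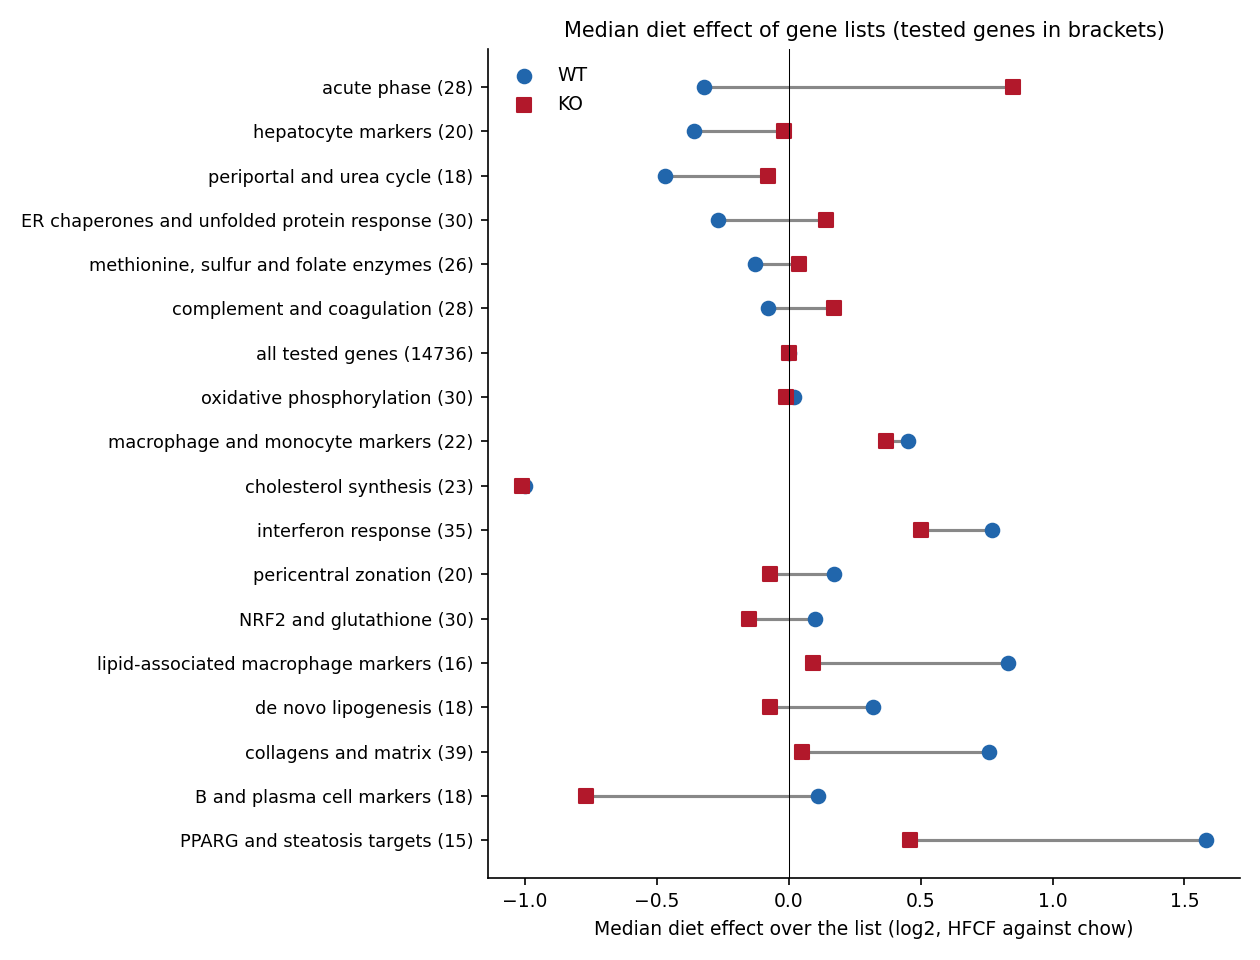
Median log2 diet effect over the tested members of 17 gene lists and over all tested genes, in WT (blue circles) and KO (red squares), with a grey line joining the 2. The acute phase list runs from -0.32 in WT to 0.85 in KO, the PPARG list from 1.58 to 0.46, and the symbols for cholesterol synthesis lie on top of each other.

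The acute phase response is the release by hepatocytes of plasma proteins that bind heme, lipid or proteases during inflammation. In KO livers HFCF raised 12 of 28 acute phase genes and in WT livers 2, with 3 lowered there, and the interaction was positive and called in 8 (beside 0.373% of all tested genes). None of the 28 was called negative by edgeR, by DESeq2, by limma voom or at an unadjusted p under 0.05. On HFCF, 20 of the 28 were higher in KO than in WT, and on chow 6 were higher and 1 lower.

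Saa1 and Saa2 encode serum amyloid A proteins carried on high-density lipoprotein. Saa1 (chromosome 7, 46740501 to 46742980, minus strand, mm10 as for all positions here) stood at 100.3, 85.3 and 20.1 CPM in WT on chow, 77.5, 55.6 and 22.5 in WT HFCF, 266, 198 and 56.2 in KO chow and 2165, 2308 and 2229 in KO HFCF livers. The 3 KO HFCF livers lay above all 9 others, which overlapped, and replicate 3 was the lowest of each of the other 3 groups. HFCF minus chow was -0.40 ± 0.57 in WT and 3.69 ± 0.61 in KO (edgeR adjusted p = 0.687 and 0.00572), and the interaction was 4.09 ± 0.82 (95% interval 2.32 to 5.85, edgeR adjusted p = 0.0423). Saa2 stood at 24.4, 23.1 and 7.05 CPM, 47.9, 28 and 11, 110.5, 95.2 and 24.6 and 2123, 1984 and 1902 CPM in the same order of groups, again with KO HFCF livers above all others. Its interaction was 4.03 ± 0.78 (edgeR adjusted p = 0.0401). The 2 genes are close paralogs 8853 bases apart, so reads may have been divided between them in a way that cannot be checked here.

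Hp encodes haptoglobin, which binds free hemoglobin. Its level was 4512, 3835 and 3416 CPM in WT on chow, 3674, 2954 and 2603 in WT HFCF, 3832, 5837 and 3788 in KO chow and 8798, 7542 and 8455 in KO HFCF livers. KO HFCF livers were again above the other 9, while WT HFCF overlapped WT chow. The interaction was 1.23 ± 0.24 for Hp and 1.02 ± 0.19 for Hpx, the heme-binding hemopexin (edgeR adjusted p = 0.0409 and 0.0351). For Orm1, an alpha-1-acid glycoprotein, it was 1.11 ± 0.23 (edgeR adjusted p = 0.0475). Itih3 and Itih4, heavy chains of the inter-alpha-trypsin inhibitor family, had 1.51 ± 0.27 and 1.48 ± 0.32 (edgeR adjusted p = 0.0341 and 0.0497). Mt1, the metal-binding metallothionein 1, stood at 94.4, 132 and 67.2 CPM in WT on chow, 75.6, 79.9 and 56.6 in WT HFCF, 67.4, 135 and 76.3 in KO chow and 212, 239.7 and 236 in KO HFCF livers, with an interaction of 1.77 ± 0.36 (edgeR adjusted p = 0.0423). Its 3 KO HFCF values lay above all the others. Of these 8 calls, the number that remained was 7 without KO chow library 2; 6 without WT HFCF library 1; 5 without WT chow library 3; 3 without WT HFCF library 3; 1 without WT HFCF library 2; and 0 without WT chow libraries 1 or 2, KO chow libraries 1 or 3, or KO HFCF libraries 1, 2 or 3, with edgeR adjusted p-values up to 0.122. Macrophage and monocyte marker sums, given above, were also highest in KO HFCF livers, and their part in the result was not tested.

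**Figure D3:**
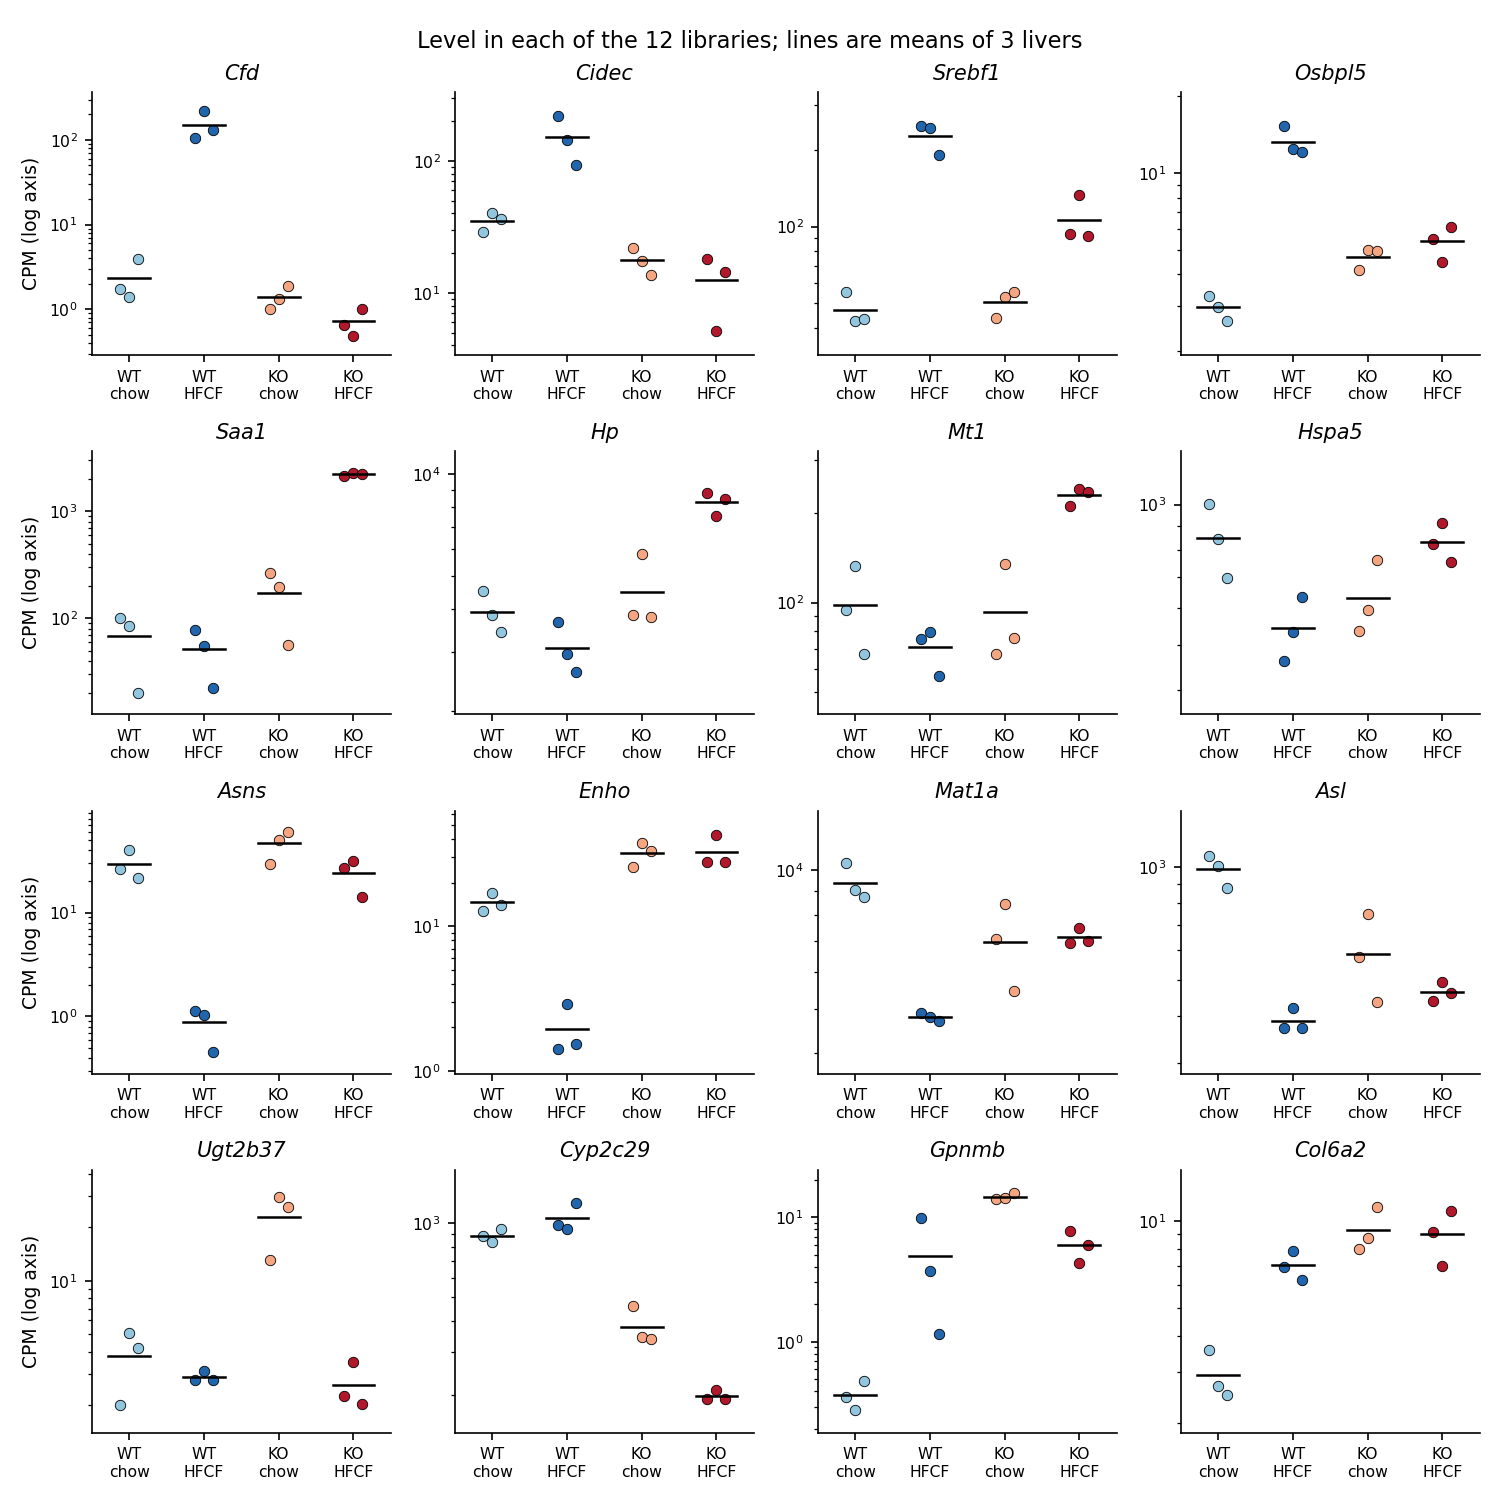
Level in CPM, on log axes, of 16 genes in each of the 12 libraries, with 3 points per group and a line at the group mean. Cfd, Cidec and Osbpl5 are high in WT HFCF livers only, Saa1, Hp and Mt1 in KO HFCF livers only, Asns and Enho are low in WT HFCF livers only, Cyp2c29 is lowest in KO HFCF livers, and Ugt2b37 is high in KO chow livers only.

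Chaperones of the endoplasmic reticulum fold secreted and membrane proteins, and many are induced together when unfolded proteins accumulate. In WT livers HFCF lowered 11 of 30 genes of this list, and in KO livers 1 was raised. The interaction was positive and called in 4 of the 30, and 15 were positive and 0 negative at an unadjusted p under 0.05. It was negative and called in 0 by edgeR, DESeq2 or limma voom, and DESeq2 called 11 positive.

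Hspa5 (chromosome 2, 34771970 to 34776531, plus strand) encodes BiP, the main HSP70 chaperone of the compartment. It stood at 1001, 845 and 696 CPM in WT on chow, 462, 535 and 633 in WT HFCF, 537, 595 and 760.0 in KO chow and 821, 914 and 754 in KO HFCF livers. WT HFCF livers lay below WT chow livers without overlap, while KO HFCF livers overlapped KO chow livers. Its diet effect was -0.64 ± 0.16 in WT and 0.40 ± 0.16 in KO (edgeR adjusted p = 0.0167 and 0.201), and the interaction was 1.04 ± 0.22 (edgeR adjusted p = 0.0497). With RLE scaling, no filter or the stricter filter the call was lost (edgeR adjusted p = 0.0503, 0.0503 and 0.0515). Calr, the lectin chaperone calreticulin, stood at 607, 567 and 466 CPM in WT on chow, 350.3, 387 and 410.3 in WT HFCF, 355, 509 and 474 in KO chow and 655, 751 and 598 in KO HFCF livers. In neither genotype did the diet groups overlap, and the direction was opposite, -0.52 ± 0.14 in WT and 0.58 ± 0.14 in KO (edgeR adjusted p = 0.0262 and 0.0421). Its interaction was 1.10 ± 0.20 (edgeR adjusted p = 0.0341).

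The HSP90 chaperone of the compartment, Hsp90b1, had an interaction of 0.90 ± 0.18, and Dnajb11, a co-chaperone of BiP, had 0.70 ± 0.15 (edgeR adjusted p = 0.0457 and 0.0481). Hsp90b1 overlaps 1810014B01Rik on the opposite strand, and no source used here gave the strand setting of the counting. The folding factors Manf and Sdf2l1, chosen after their values were seen, missed the threshold with 1.11 ± 0.24 and 1.44 ± 0.34 (edgeR adjusted p = 0.0539 and 0.0717). Of the 4 calls, the number that remained was 4 without WT HFCF library 3; 1 without WT chow library 3, KO chow library 2, or WT HFCF library 1; and 0 without WT chow libraries 1 or 2, KO chow libraries 1 or 3, WT HFCF library 2, or KO HFCF libraries 1, 2 or 3, with edgeR adjusted p-values up to 0.133.

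Several enzymes of amino acid and one-carbon metabolism fell on HFCF in WT livers and did not pass the test in KO livers. Among 26 methionine, sulfur and folate enzymes, HFCF lowered 10 and raised 3 in WT, and in KO it raised 3. The interaction was positive and called in 3 of the 26, and negative and called in 0 by edgeR, DESeq2 or limma voom, with 1 negative at an unadjusted p under 0.05. Of 23 genes of the ATF4 amino acid response, 1 was called by edgeR and DESeq2, Asns, and 0 by limma voom, with 2 positive and 2 negative at an unadjusted p under 0.05.

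Asns (chromosome 6, 7675169 to 7693254, minus strand) makes asparagine from aspartate and glutamine and is a known target of ATF4. Its level was 26, 40.1 and 21.6 CPM in WT on chow, 1.14, 1.04 and 0.451 in WT HFCF, 29.2, 49.5 and 60 in KO chow and 26.8, 31.2 and 14.1 in KO HFCF livers. The 3 WT HFCF livers lay far below the other 9. Its diet effect was -5.04 ± 0.46 in WT and -0.95 ± 0.30 in KO (edgeR adjusted p = 2.4e-05 and 0.108), and the interaction was 4.08 ± 0.58 (95% interval 2.84 to 5.33, edgeR adjusted p = 0.0136). It was called with each of the 12 libraries left out, at 3.77 to 4.34, and was not called by limma voom (adjusted p = 0.0625).

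Mat1a encodes the liver enzyme that makes S-adenosylmethionine. It stood at 10380, 9070 and 8750 CPM in WT on chow, 4897, 4782 and 4694 in WT HFCF, 7088, 8433 and 5455 in KO chow and 6943, 7474 and 7028 in KO HFCF livers. In WT the diet groups were apart, in KO they overlapped, and the interaction was 1.00 ± 0.18 (edgeR adjusted p = 0.0341). Nnmt, which spends S-adenosylmethionine to methylate nicotinamide, stood at 220.4, 180.3 and 132 CPM in WT on chow, 42.1, 38.1 and 57.1 in WT HFCF, 119, 193 and 91.4 in KO chow and 142, 150.1 and 115 in KO HFCF livers. Its diet effect was -1.96 ± 0.25 in WT and 0.01 ± 0.24 in KO, with an interaction of 1.97 ± 0.35 (edgeR adjusted p = 0.0341).

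Kynureninase, Kynu, an enzyme of tryptophan breakdown, stood at 204, 179 and 198 CPM in WT on chow, 114, 121 and 122 in WT HFCF, 175, 184 and 152 in KO chow and 181, 189 and 171 in KO HFCF livers, with an interaction of 0.79 ± 0.12 (edgeR adjusted p = 0.0165). The WT HFCF livers lay below the other 9. Got1, the cytosolic aspartate aminotransferase, had an interaction of 1.43 ± 0.29, and Csad, which makes taurine from cysteine, had 0.91 ± 0.19 (edgeR adjusted p = 0.0456 and 0.0481). Agxt, which detoxifies glyoxylate, was chosen after its values were seen and had 1.00 ± 0.18 (edgeR adjusted p = 0.0341). Of the 7 calls among these enzymes, the number that remained was 7 without WT HFCF library 1; 6 without KO chow library 2; 5 without WT HFCF library 3; 3 without WT chow libraries 2 or 3, KO chow library 3, or WT HFCF library 2; 2 without KO chow library 1, or KO HFCF libraries 1 or 3; and 1 without WT chow library 1, or KO HFCF library 2, with edgeR adjusted p-values up to 0.105.

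Nitrogen is handled along the liver lobule, with urea made around the portal vein and glutamine made by the last hepatocytes around the central vein. On HFCF 8 of 18 periportal and urea cycle genes fell and 1 rose in WT, and 1 fell in KO. The interaction was positive and called in 3 of the 18, and in the pericentral list negative and called in 2 of 20. It was called the other way in 0 of both lists by edgeR and limma voom, while DESeq2 called 1 pericentral gene positive and 1 gene of each list went the other way at an unadjusted p under 0.05.

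Asl, which splits argininosuccinate in the urea cycle, stood at 1072, 1006 and 877 CPM in WT on chow, 372, 421 and 372 in WT HFCF, 575, 750.4 and 437 in KO chow and 438, 493 and 462 in KO HFCF livers. WT livers on the 2 diets were far apart, KO livers overlapped, and KO chow livers already lay below WT chow livers. In log2 units the diet effect was -1.34 ± 0.15 in WT and -0.34 ± 0.15 in KO, and the interaction was 1.00 ± 0.21 (edgeR adjusted p = 0.0497). Ass1, which makes argininosuccinate, had an interaction of 0.68 ± 0.14, and Slc25a15, the mitochondrial ornithine carrier, had 0.66 ± 0.14 (edgeR adjusted p = 0.0466 and 0.0457). Glul, the glutamine synthetase of pericentral hepatocytes, had an interaction of the other sign. It stood at 820.2, 989.6 and 883 CPM in WT on chow, 1363, 1177 and 1127 in WT HFCF, 867, 707 and 722 in KO chow and 519, 621 and 669 in KO HFCF livers.

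All 3 WT HFCF livers had more Glul than the other 9, and all 3 KO HFCF livers had less. The diet effect on Glul was 0.45 ± 0.12 in WT and -0.34 ± 0.12 in KO (edgeR adjusted p = 0.0257 and 0.142), and the interaction was -0.79 ± 0.17 (edgeR adjusted p = 0.0497). Rhbg, an ammonia transporter of the same cells, stood at 6.51, 5.59 and 5.18 CPM in WT on chow, 14.9, 11 and 7.99 in WT HFCF, 21.5, 18.6 and 23.9 in KO chow and 17.8, 15.7 and 14.1 in KO HFCF livers, with an interaction of -1.41 ± 0.27 (edgeR adjusted p = 0.0377). KO chow livers had the highest Rhbg levels of the 4 groups. Of these 5 calls, the number that remained was 3 without KO chow library 2, or WT HFCF library 3; 1 without WT HFCF library 1; and 0 without WT chow libraries 1, 2 or 3, KO chow libraries 1 or 3, WT HFCF library 2, or KO HFCF libraries 1, 2 or 3, with edgeR adjusted p-values up to 0.133. Both Glul and Rhbg overlap other genes in the table.

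A pair of genes for secreted liver factors fell on HFCF in WT livers and did not pass the test in KO livers. Over a list of 23 liver-secreted hormones the interaction went both ways. It was called positive in 1 and negative in 1 by edgeR, 1 and 4 by DESeq2, and 1 and 0 by limma voom. At an unadjusted p under 0.05, 4 were positive and 6 negative. Enho (chromosome 4, 41638144 to 41640324, minus strand) encodes adropin, a peptide with effects on glucose and lipid metabolism. It stood at 12.8, 16.9 and 14.1 CPM in WT on chow, 1.42, 2.92 and 1.55 in WT HFCF, 25.6, 37.7 and 32.9 in KO chow and 27.8, 42.5 and 27.8 in KO HFCF livers. WT HFCF livers lay below all WT chow livers, and all 6 KO livers lay above all 6 WT livers. The diet effect was -2.92 ± 0.27 in WT and 0.03 ± 0.20 in KO (edgeR adjusted p = 2.99e-05 and 0.957), with an interaction of 2.95 ± 0.34 (95% interval 2.22 to 3.68, edgeR adjusted p = 0.0034), called with each library left out, at 2.69 to 3.33. Enho overlaps Dnaic1 on the opposite strand. Fgl1, or hepassocin, a fibrinogen-like protein, stood at 763, 390.3 and 215 CPM in WT on chow, 95.3, 105 and 115 in WT HFCF, 369, 942 and 349 in KO chow and 929, 934 and 942 in KO HFCF livers. Its interaction was 2.87 ± 0.57 (edgeR adjusted p = 0.0409), and the chow livers of both genotypes were spread widely. Enho and Fgl1 both remained called without WT chow replicate 3 or KO chow replicate 2, and Enho alone without any one of the other 10 libraries, where the edgeR adjusted p of Fgl1 was up to 0.101.

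PPARG targets rose on HFCF in WT livers, and fewer of them passed the test in KO livers, while most genes of the other lipid lists did not pass in WT or in KO livers. Of 15 PPARG and steatosis targets, HFCF raised 14 in WT and 2 in KO. The interaction was negative and called in 2 of the 15 (beside 0.421% of all tested genes), and 9 were negative at an unadjusted p under 0.05. Of 18 genes of de novo lipogenesis, 6 rose and 1 fell in WT, 1 rose and 2 fell in KO, and the interaction was negative and called in 2. Of 17 lipid droplet and lipolysis genes, 5 rose and 1 fell in WT and 1 rose in KO, and of 12 triglyceride synthesis genes, 2 rose and 1 fell in WT and in KO 0 passed by edgeR, DESeq2 or limma voom, with 1 in each direction at an unadjusted p under 0.05. In these 2 lists the interaction was called in 0 by edgeR, DESeq2 or limma voom, with 6 and 1 negative at an unadjusted p under 0.05. It was positive and called in 0 of the 4 lists by edgeR, DESeq2 or limma voom, and in 0 at an unadjusted p under 0.05.

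Cfd (chromosome 10, 79890853 to 79892656, plus strand) encodes adipsin, the serine protease factor D of the alternative complement pathway, best known as an adipocyte product. It stood at 1.72, 1.42 and 3.94 CPM in WT on chow, 104, 217 and 130.3 in WT HFCF, 0.996, 1.31 and 1.89 in KO chow and 0.654, 0.489 and 1.01 in KO HFCF livers. Only the WT HFCF livers were high, and the other 9 lay at a few CPM or less. HFCF minus chow was 5.98 ± 0.34 in WT and -0.90 ± 0.63 in KO (edgeR adjusted p = 4.25e-07 and 0.492), and the interaction was -6.88 ± 0.75 (95% interval -8.49 to -5.28, edgeR adjusted p = 0.0034), called with each library left out, at -7.48 to -6.53. Summed levels of 8 adipose markers, Cfd and Cidec among them, were 6270 to 7150 CPM in WT on chow, 7760 to 9340 in WT HFCF, 5000 to 6950 in KO chow and 4960 to 6190 in KO HFCF livers. These sums come mostly from genes other than Cfd, which reached 217 CPM at most. Pck1, which is also among the hepatocyte markers above, is another of the 8. The adipocyte genes Adipoq, Lep, Plin1 and Retn were not in the count table, where each gene reached at least 10 counts in a library. The part of adipose tissue in the result was not tested.

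Cidec encodes a protein that fuses lipid droplets. It stood at 28.7, 40.1 and 36.3 CPM in WT on chow, 219.9, 144 and 92.8 in WT HFCF, 22, 17.5 and 13.6 in KO chow and 18.1, 5.11 and 14.4 in KO HFCF livers. All WT HFCF livers lay above all the others, and the KO livers on the 2 diets overlapped. Its interaction was -2.62 ± 0.51 (edgeR adjusted p = 0.0401). The related Cidea stood at 1.22, 0.637 and 1.04 CPM in WT on chow, 71, 32.2 and 16.2 in WT HFCF, 0.388, 0.414 and 0.378 in KO chow and 0.291, 0.21 and 0.225 in KO HFCF livers, and its interaction missed the threshold at -6.05 ± 1.47 (edgeR adjusted p = 0.0751), the WT HFCF livers differing widely among themselves.

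Srebf1 (chromosome 11, 60199089 to 60222581, minus strand) encodes SREBP-1, the transcription factor that drives fatty acid synthesis genes. It stood at 55.5, 42.8 and 43.4 CPM in WT on chow, 247, 243 and 191 in WT HFCF, 43.7, 52.7 and 55.2 in KO chow and 93.1, 133 and 92 in KO HFCF livers. Chow livers of both genotypes overlapped, and HFCF raised Srebf1 in each, by 2.27 ± 0.16 in WT and 1.07 ± 0.16 in KO (edgeR adjusted p = 2.89e-06 and 0.00236). The interaction was -1.20 ± 0.22 (edgeR adjusted p = 0.0341). Thrsp (Spot 14), a lipogenic protein, stood at 16.2, 15.6 and 11.5 CPM in WT on chow, 229, 151 and 60.8 in WT HFCF, 13.6, 14.5 and 28.9 in KO chow and 23.8, 40.2 and 22.3 in KO HFCF livers, with an interaction of -2.75 ± 0.59 (edgeR adjusted p = 0.0497). WT HFCF livers were above the others for Thrsp and spread over a wide range. Scd1, the stearoyl-CoA desaturase, was chosen after its values were seen and missed the threshold with -1.78 ± 0.41 (edgeR adjusted p = 0.0607).

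Aacs, which activates acetoacetate for lipid synthesis in the cytosol, stood at 17.4, 25 and 12.7 CPM in WT on chow, 114, 151 and 72 in WT HFCF, 15.6, 18.7 and 51.4 in KO chow and 27, 19.2 and 35 in KO HFCF livers. The interaction was -2.69 ± 0.58 (edgeR adjusted p = 0.0497), and 1 KO chow liver, replicate 3, lay well above its partners. Osbpl5, an oxysterol-binding protein relative that moves lipid between membranes, stood at 3.29, 2.97 and 2.63 CPM in WT on chow, 15.2, 12.4 and 12.1 in WT HFCF, 4.15, 4.97 and 4.92 in KO chow and 5.52, 4.48 and 6.13 in KO HFCF livers. KO livers on the 2 diets overlapped and lay between the WT groups. Its interaction was -1.95 ± 0.23 (edgeR adjusted p = 0.0034), called with each library left out. Of the 6 calls among Cfd, Cidec, Thrsp, Srebf1, Aacs and Osbpl5, the number that remained was 6 without WT HFCF library 3; 5 without KO chow library 2; 4 without WT HFCF library 1; 3 without WT chow library 1, or KO HFCF library 2; and 2 without WT chow libraries 2 or 3, KO chow libraries 1 or 3, WT HFCF library 2, or KO HFCF libraries 1 or 3, with edgeR adjusted p-values up to 0.124. Srebf1 overlaps Rai1.

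Matrix genes rose on HFCF in WT livers, and many of them were higher in KO than in WT livers on chow. Of 39 collagen and matrix genes, HFCF raised 22 and lowered 2 in WT. In KO it changed 0 by edgeR and limma voom, 2 by DESeq2 (1 in each direction), and 6 at an unadjusted p under 0.05 (3 in each direction). On chow, 29 of the 39 were higher in KO than in WT. The interaction was negative and called in 1 of the 39, Col6a2, with 21 negative and 0 positive at an unadjusted p under 0.05, and limma voom called 0 and DESeq2 8 negative.

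Col6a2, a chain of the microfibril collagen VI, stood at 3.58, 2.69 and 2.49 CPM in WT on chow, 6.94, 7.86 and 6.25 in WT HFCF, 7.97, 8.7 and 11.2 in KO chow and 9.16, 6.99 and 10.8 in KO HFCF livers. WT chow livers lay below the other 9, and KO livers on the 2 diets overlapped. Its interaction was -1.30 ± 0.28 (edgeR adjusted p = 0.0487). Col1a1, the main fibrillar collagen chain, was chosen after its values were seen and missed the threshold with -2.31 ± 0.55 (edgeR adjusted p = 0.07). Stellate and fibroblast markers (17 genes) summed to 743 to 861 CPM in WT on chow, 903 to 924 in WT HFCF, 894 to 928 in KO chow and 848 to 996 in KO HFCF livers, and their part in the result was not tested.

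Gpnmb encodes a membrane glycoprotein that marks lipid-laden macrophages. It stood at 0.358, 0.283 and 0.484 CPM in WT on chow, 9.84, 3.69 and 1.16 in WT HFCF, 14, 14.2 and 15.8 in KO chow and 7.78, 4.34 and 5.96 in KO HFCF livers. It was lowest in WT chow, uneven in WT HFCF, with replicate 1 the highest there, and highest in KO chow. Its diet effect was 3.70 ± 0.72 in WT and -1.29 ± 0.42 in KO (edgeR adjusted p = 0.00469 and 0.12), and the interaction was -4.99 ± 0.84 (edgeR adjusted p = 0.0341). Ctsl, the lysosomal protease cathepsin L, went the other way with 0.71 ± 0.14 (edgeR adjusted p = 0.0423). Trem2, the lipid receptor that marks the same macrophages, was chosen after its values were seen and did not pass, at -1.59 ± 0.55 (edgeR adjusted p = 0.223).

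Of the 3 calls (Col6a2, Gpnmb and Ctsl), the number that remained was 2 without KO chow library 2, or WT HFCF libraries 1 or 3; 1 without WT HFCF library 2, or KO HFCF library 1; and 0 without WT chow libraries 1, 2 or 3, KO chow libraries 1 or 3, or KO HFCF libraries 2 or 3, with edgeR adjusted p-values up to 0.114. The 16 lipid-associated macrophage markers summed to 3050 to 3550 CPM in WT on chow, 3190 to 4410 in WT HFCF, 3190 to 3340 in KO chow and 2960 to 3710 in KO HFCF livers, and 15 Kupffer cell markers to 886 to 970, 870 to 1100, 1240 to 1250 and 1350 to 1400 CPM. In WT HFCF the top of both ranges was replicate 1. A sum follows its most abundant genes and can hide changes in the others. Gene by gene, 9 of the 16 lipid-associated markers were higher and 1 lower in KO than in WT on chow. HFCF raised 7 of them and lowered 1 in WT, and raised 1 and lowered 0 in KO. The part of these cells in the results was not tested.

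A smaller set of genes fell on HFCF in KO livers and did not fall by the test in WT livers, among them enzymes that clear hormones and foreign compounds. Cyp2c29, a cytochrome P450 of drug and fatty acid oxidation, stood at 882, 833 and 945 CPM in WT on chow, 981, 944 and 1198 in WT HFCF, 459, 343 and 337 in KO chow and 193, 209 and 194 in KO HFCF livers. KO chow livers lay below all WT livers, KO HFCF livers lay lowest, and WT livers on the 2 diets overlapped. Its interaction was -1.17 ± 0.17 (edgeR adjusted p = 0.0165), called with each library left out. Of 29 drug-metabolizing P450 and CAR genes it was the 1 called by edgeR and by limma voom. DESeq2 called 4 of the 29 negative and 1 positive, and 7 were negative and 3 positive at an unadjusted p under 0.05. Ugt2b37, a glucuronosyltransferase, stood at 2, 5.1 and 4.22 CPM in WT on chow, 2.79, 3.13 and 2.77 in WT HFCF, 13.1, 29.5 and 26.2 in KO chow and 2.25, 3.5 and 2.02 in KO HFCF livers, and had an interaction of -2.77 ± 0.51 (edgeR adjusted p = 0.0341). Only KO chow livers were high in Ugt2b37, and KO HFCF livers lay within the WT range. Among 22 conjugation enzymes Ugt2b37 had the 1 interaction called by edgeR and by DESeq2, and limma voom called 0. With no adjustment of p (under 0.05), 3 interactions of this list were positive and 2 negative. The list as a whole did not fall in KO, where its median diet effect was 0.14. By the unadjusted p, HFCF raised 5 of the 22 in KO and lowered 3. The diet effect was 0.23 ± 0.12 in WT and -0.93 ± 0.12 in KO for Cyp2c29 (edgeR adjusted p = 0.237 and 0.00135), and -0.39 ± 0.37 and -3.15 ± 0.33 for Ugt2b37 (edgeR adjusted p = 0.538 and 0.000202). Both belong to families of near-identical genes, so their counts are uncertain.

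Of 30 NRF2 and glutathione genes, 7 fell on HFCF in KO (beside 1.18% of all tested genes). In WT 4 rose and 2 fell (beside 7.76% and 5.9%). The interaction was negative and called in 3 of the 30 (beside 0.421%), all glutathione transferases, and DESeq2 called 6 negative and limma voom 2. At an unadjusted p under 0.05, 12 were negative and 1 positive. Gsta3 had an interaction of -0.61 ± 0.12, with diet effects of 0.27 in WT and -0.34 in KO that both passed the test (edgeR adjusted p = 0.0377, 0.0437 and 0.0443). Gsta4 had -0.79 ± 0.17 (edgeR adjusted p = 0.0497). Gstt1 had -0.90 ± 0.18, with diet effects of 0.71 in WT and -0.20 in KO (edgeR adjusted p = 0.0423, 0.00292 and 0.455). Of the 5 calls from Cyp2c29 to Gstt1, the number that remained was 4 without KO chow library 2, or WT HFCF library 3; 3 without WT HFCF libraries 1 or 2; 2 without WT chow libraries 2 or 3, or KO chow library 1; and 1 without WT chow library 1, KO chow library 3, or KO HFCF libraries 1, 2 or 3, with edgeR adjusted p-values up to 0.122.

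Several called genes belonged to no group above. Slc6a9, the glycine transporter GlyT1, stood at 19.4, 18.8 and 19.6 CPM in WT on chow, 35.4, 39 and 28.7 in WT HFCF, 26.3, 24.2 and 22.8 in KO chow and 19.4, 16.7 and 20.4 in KO HFCF livers, WT HFCF lying above the others and KO HFCF below KO chow. Its interaction was -1.21 ± 0.16 (edgeR adjusted p = 0.00852), called with each library left out, and it overlaps the called gene Ccdc24 on the opposite strand. Hnmt, which inactivates histamine, was chosen after its values were seen. It stood at 27.2, 23.7 and 20.8 CPM in WT on chow, 78.8, 66.1 and 57.9 in WT HFCF, 20.5, 21.9 and 22 in KO chow and 29, 30.2 and 26.8 in KO HFCF livers, with an interaction of -1.08 ± 0.17 (edgeR adjusted p = 0.0165), called with each library left out. WT HFCF livers had the most Hnmt, and the 2 chow groups overlapped.

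Positive interactions were also called for Mup21, a major urinary protein, at 1.54 ± 0.28, and Tbc1d30, a Rab GTPase regulator, at 1.43 ± 0.28 (edgeR adjusted p = 0.0341 and 0.0401). Fam89a had 1.21 ± 0.18 and Cyp4a32, of the fatty acid hydroxylase family, 1.19 ± 0.23 (edgeR adjusted p = 0.0165 and 0.0401). Mup21 and Cyp4a32 have near-identical relatives, so their counts are uncertain.

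Negative interactions were called for Gpr98, an adhesion receptor, at -2.87 ± 0.55, and Kbtbd11, a Kelch-domain protein, at -2.55 ± 0.48 (edgeR adjusted p = 0.0377 and 0.0374). The semaphorin Sema5b had -1.64 ± 0.29, Phldb1 -1.56 ± 0.24 and the tropomyosin Tpm2 -1.50 ± 0.31 (edgeR adjusted p = 0.0341, 0.0198 and 0.0456). Fam151a and the interferon-inducible Ifi27l2b, which overlap other genes, had -1.63 ± 0.34 and -1.77 ± 0.38 (edgeR adjusted p = 0.0481 and 0.0497). Of the 13 calls from Slc6a9 to Ifi27l2b, the number that remained was 11 without KO chow library 2, or WT HFCF library 3; 10 without WT HFCF library 1; 8 without WT HFCF library 2; 5 without WT chow library 2, or KO HFCF libraries 1 or 3; 4 without WT chow library 3, or KO chow library 1; 3 without WT chow library 1, or KO chow library 3; and 2 without KO HFCF library 2, with edgeR adjusted p-values up to 0.12.

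The next 12 called genes were chosen after their values were seen. Itih1, a neighbour of Itih3 and a further heavy chain, had an interaction of 0.69 ± 0.13, the disulfide isomerase Pdia5 1.17 ± 0.24, and Rpn1, a subunit of the oligosaccharyl transferase of the endoplasmic reticulum, 0.63 ± 0.12 (edgeR adjusted p = 0.0401, 0.0457 and 0.0404). Each stood lower in WT HFCF than in WT chow livers, Pdia5 at 15 to 22.9 against 32.5 to 36.9 CPM and Itih1 at 663 to 809 against 975 to 1076 CPM. The long noncoding RNA E230001N04Rik had 3.67 ± 0.66 and stood at 4.22, 3.96 and 2.56 CPM in WT on chow, 0.171, 0.209 and 0.0644 in WT HFCF, 1.83, 1.86 and 0.945 in KO chow and 0.509, 1.33 and 0.731 in KO HFCF livers (edgeR adjusted p = 0.0341). Its 3 WT HFCF livers lay below the others.

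The provisional gene 8430419L09Rik stood at 32.8, 32.3 and 29.2 CPM in WT on chow, 13.7, 16.3 and 16 in WT HFCF, 33.4, 37.7 and 30 in KO chow and 33.9, 36.2 and 34.7 in KO HFCF livers, with an interaction of 1.09 ± 0.14 (edgeR adjusted p = 0.00642), called with each library left out. Only its WT HFCF livers were low. Pcolce, which speeds the processing of procollagen, had -1.14 ± 0.23 (edgeR adjusted p = 0.0457). Among signalling genes the neuregulin receptor Erbb4 had -1.38 ± 0.24 and the ERK phosphatase Dusp6 -1.34 ± 0.24 (edgeR adjusted p = 0.0341 and 0.0341).

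Maoa, the monoamine oxidase, stood at 16.2, 14.2 and 17.8 CPM in WT on chow, 13.5, 12.7 and 11.8 in WT HFCF, 16, 17.2 and 15.6 in KO chow and 7.12, 5.32 and 7.76 in KO HFCF livers, with an interaction of -0.92 ± 0.18 (edgeR adjusted p = 0.0423). KO HFCF livers were the lowest in Maoa. Igfbp3, a carrier of insulin-like growth factors, had -0.94 ± 0.19, and Nos3, the endothelial nitric oxide synthase, -0.99 ± 0.21 (edgeR adjusted p = 0.0423 and 0.0466). The alcohol dehydrogenase Adh1 had -0.73 ± 0.14 (edgeR adjusted p = 0.0351). Adh1 and Nos3 overlap genes on the opposite strand. Of these 12 calls, the number that remained was 11 without WT HFCF library 3; 9 without KO chow library 2; 7 without WT HFCF library 1; 3 without WT HFCF library 2; 2 without WT chow libraries 2 or 3, KO chow library 1, or KO HFCF libraries 1 or 3; and 1 without WT chow library 1, KO chow library 3, or KO HFCF library 2.

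**Figure D4:**
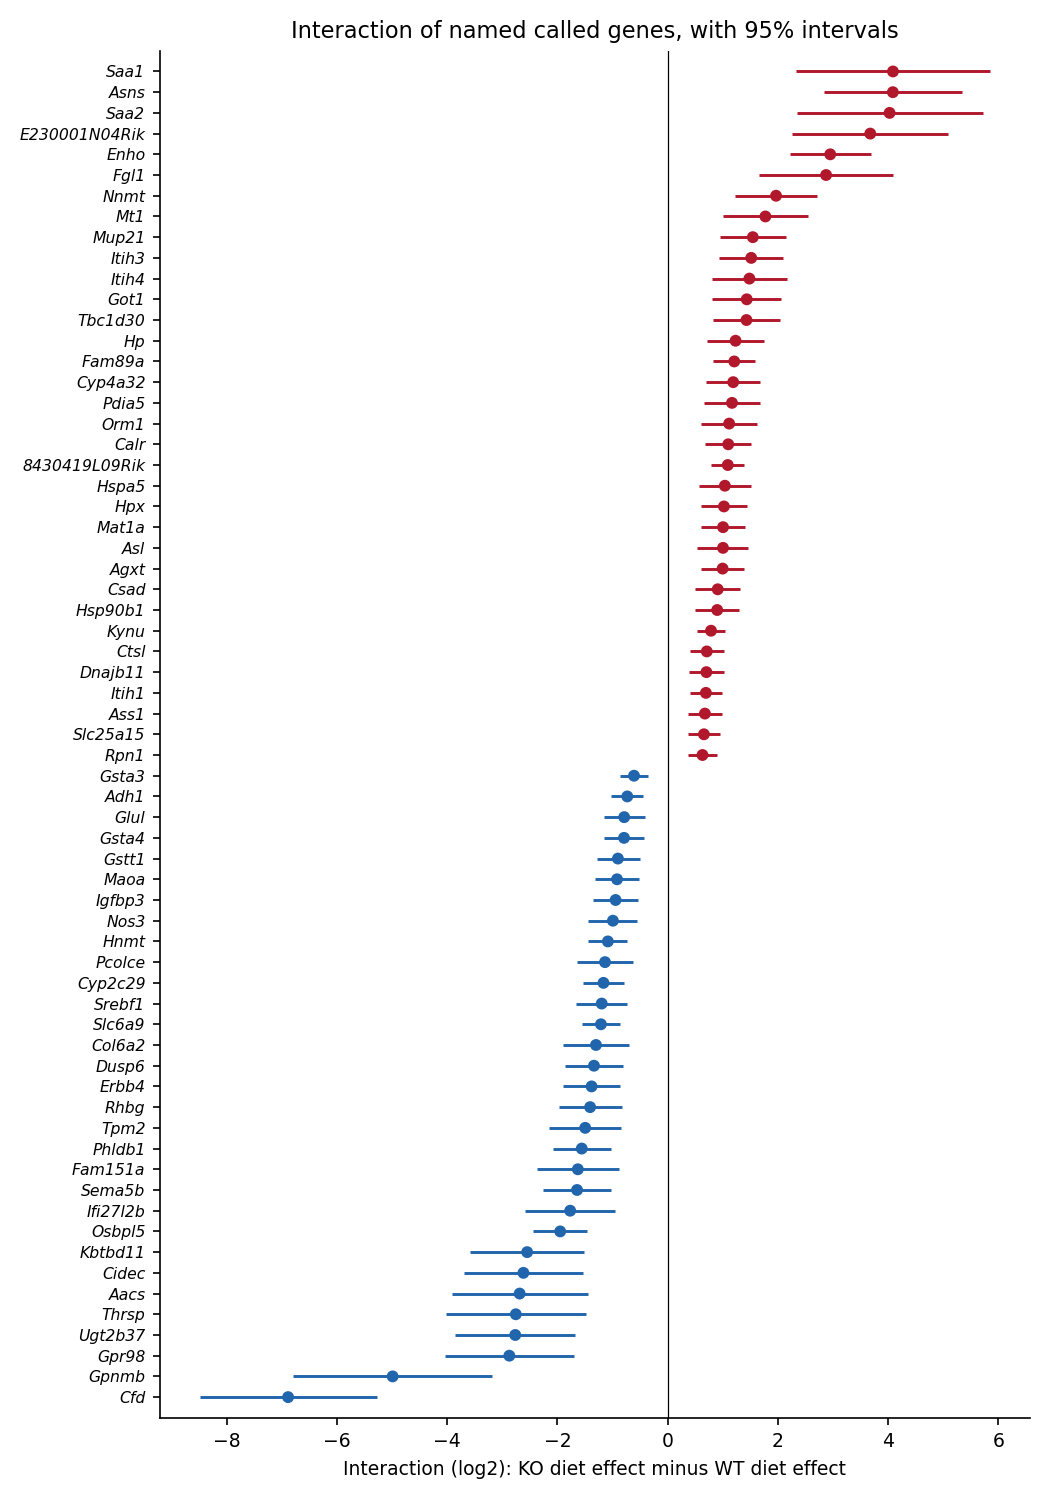
Interaction of the called genes named in the text, in log2 units (KO diet effect minus WT diet effect), as points with 95% intervals, positive in red and negative in blue, sorted by size. Cfd at -6.88 and Saa1 at 4.09 mark the ends, and genes with a large value also have a wide interval.

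Genes with a strong diet effect of similar size in both genotypes are the other side of this comparison. HFCF lowered 18 of 23 cholesterol synthesis genes in WT and 18 of 23 in KO. The interaction was negative and called in 1 of the 23 by edgeR, DESeq2 and limma voom alike. The share over all tested genes was 0.421% by edgeR. DESeq2 also called 1 positive, and 4 were negative and 1 positive at an unadjusted p under 0.05. Sqle, the squalene epoxidase, stood at 22.7, 31.4 and 26.6 CPM in WT on chow, 2.56, 1.88 and 2.45 in WT HFCF, 23.8, 36.6 and 53.1 in KO chow and 3.27, 2.59 and 3.54 in KO HFCF livers. The diet groups were far apart in both genotypes, with -3.54 ± 0.28 in WT and -3.58 ± 0.27 in KO, and the interaction was -0.04 ± 0.42 (95% interval -0.95 to 0.87, edgeR adjusted p = 0.982). That interval excludes a difference beyond 1 log2 unit in either direction.

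Moxd1, a monooxygenase relative, stood at 0, 0.142 and 0.138 CPM in WT on chow, 0.114, 0.139 and 0.129 in WT HFCF, 2.66, 0.828 and 4.79 in KO chow and 160.3, 226 and 90.6 in KO HFCF livers. KO livers rose by 5.82 ± 0.40 (edgeR adjusted p = 6.99e-06), yet the interaction was not called (edgeR adjusted p = 0.463), WT livers holding 4 counts on chow and 6 on HFCF in all. The interaction for Nr0b2 itself did not pass the test (-1.61 ± 0.66, edgeR adjusted p = 0.305).

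Interferon response genes (35 tested) had a median diet effect of 0.77 in WT and 0.50 in KO, with 15 and 5 raised. Their interaction was called in 0 by edgeR, DESeq2 or limma voom, and 5 were negative and 0 positive at an unadjusted p under 0.05. Over 30 genes of oxidative phosphorylation the interaction was called in 0 by each of the 3 tools and in 0 at an unadjusted p under 0.05, with a median of -0.02. Among 22 macrophage and monocyte markers it was called in 0 by each tool, with 2 negative at an unadjusted p under 0.05, and the median moved from -0.28 without WT HFCF replicate 3 to 0.30 without WT HFCF replicate 1. The count of called interactions also moved with single libraries, from 11 without KO HFCF replicate 2 to 136 without WT HFCF replicate 3. It was 16, 32 and 32 without WT chow replicate 1, 2 or 3, 18 and 17 without KO chow replicate 1 or 3, 46 without WT HFCF replicate 2, and 23 and 20 without KO HFCF replicate 1 or 3. All 117 genes kept the sign of their interaction in each of the 12 fits, 17 were called in 6 or more of them, and 9 were called in all 12, among them Asns, Enho, 8430419L09Rik, Cyp2c29, Slc6a9, Hnmt, Osbpl5 and Cfd. Of the called genes named here, limma voom did not call 15, with adjusted p-values from 0.0504 for Nos3 to 0.101 for Gpr98. Besides these and Asns they were Saa1, Thrsp, Aacs, Gpnmb, Col6a2, Pcolce, Ugt2b37, Gsta4, Kbtbd11, Tpm2, Fam151a and Ifi27l2b.

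**Figure D5:**
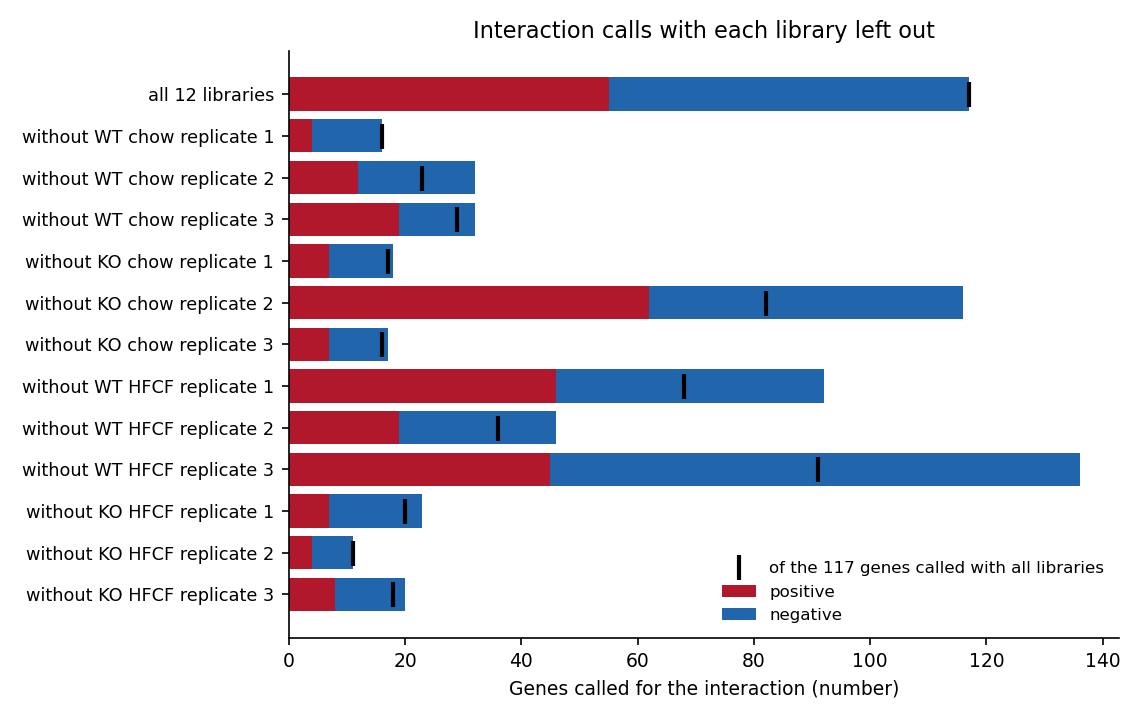
Number of genes called for the interaction with all 12 libraries (top bar, 55 positive in red and 62 negative in blue) and with each library left out, the black mark showing how many of the original 117 are among them. The bars run from 11 to 136 genes, and the removal of KO chow replicate 2, WT HFCF replicate 1 or WT HFCF replicate 3 leaves 92 to 136 calls while each of the other 9 leaves 46 or fewer.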

How the data were processed

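Trizol and a column kit were used to extract RNA from 12 mouse livers, and stranded libraries were made after ribosomal RNA removal, per the labels' protocols. The deposited table holds whole-number read counts per gene and library, which are the values tested, together with FPKM values and gene lengths, per the file headers. The authors' FPKM were not tested. The submitters' processing notes name mm10. The aligner, the counter and its strand setting are not given in the sources used here. Starts in the table count from 0, so 1 was added.

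Genes were kept by filterByExpr (minimum count 10, minimum total 15), leaving 14736 and removing 1110. TMM scaling was applied, and 4 group means were fitted by edgeR 4.0.16 (R 4.3.3, quasi-likelihood), and p-values were adjusted by Benjamini-Hochberg over all tested genes. With 3 livers per group, 51 of 100 genes changed by a log2 of 1 and 87 of 97 changed by 2 were recovered on simulated interaction counts over 14592 genes, and 8 of 146 calls were unchanged genes. Libraries of 1 group differed by more than sampling noise (chi-square per degree of freedom 11.21 to 34.42), so none was treated as a repeat.

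The comparison and the gene lists were chosen with earlier results of these data known. Named genes were Nr0b2, the 15 most positive and 15 most negative called interactions with a mean of at least 1 CPM, the 5 lowest adjusted p-values, called list members or, where a list had none, the 2 with the lowest p, and the 6 largest rises and falls of each diet effect whose groups did not overlap. Provisional symbols and immunoglobulin segments were left out of the ranked parts, and the text passes over some of these genes, some of which are not reported here. As alternatives, scaling by RLE or upper quartile, tests with no or a stricter filter (1 CPM in 3 libraries), a replicate block, DESeq2 1.42.0, limma 3.58.1 voom and leaving out each library were run. Figures used matplotlib 3.10.9.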

Additional observations from a re-analysis of the deposited data

Results flagged for a closer look

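The following genes are listed because the diet effect in KO and in WT livers differed by a test of the difference itself, the interaction term of edgeR's quasi-likelihood fit at an adjusted p under 0.05. Each value is that interaction in log2 units, and the report gives its error. Among acute phase genes the values were Saa1 4.09, Saa2 4.03, Mt1 1.77, Itih3 1.51, Itih4 1.48, Hp 1.23, Orm1 1.11 and Hpx 1.02. Chaperone genes had Calr 1.10, Hspa5 1.04, Hsp90b1 0.90 and Dnajb11 0.70. Amino acid and one-carbon enzymes had Asns 4.08, Nnmt 1.97, Got1 1.43, Mat1a 1.00, Agxt 1.00, Csad 0.91 and Kynu 0.79. Along the lobule the values were Asl 1.00, Ass1 0.68, Slc25a15 0.66, Glul -0.79 and Rhbg -1.41. Secreted factors had Enho 2.95 and Fgl1 2.87. Lipid genes had Srebf1 -1.20, Osbpl5 -1.95, Cidec -2.62, Aacs -2.69, Thrsp -2.75 and Cfd -6.88. For macrophage and matrix genes the values were Ctsl 0.71, Col6a2 -1.30 and Gpnmb -4.99. Clearance enzymes had Gsta3 -0.61, Gsta4 -0.79, Gstt1 -0.90, Cyp2c29 -1.17 and Ugt2b37 -2.77. Other genes named by rule, or Hnmt, had Mup21 1.54, Tbc1d30 1.43, Fam89a 1.21, Cyp4a32 1.19, Hnmt -1.08, Slc6a9 -1.21, Tpm2 -1.50, Phldb1 -1.56, Fam151a -1.63, Sema5b -1.64, Ifi27l2b -1.77, Kbtbd11 -2.55 and Gpr98 -2.87. Those chosen after their values were seen had E230001N04Rik 3.67, Pdia5 1.17, 8430419L09Rik 1.09, Itih1 0.69, Rpn1 0.63, Adh1 -0.73, Maoa -0.92, Igfbp3 -0.94, Nos3 -0.99, Pcolce -1.14, Dusp6 -1.34 and Erbb4 -1.38. No explanation of these differences was tested.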

How the results depend on the processing

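All 117 genes called for the interaction kept their sign under every alternative, and 8 were called under each of them (among them Enho, 8430419L09Rik, Cyp2c29, Slc6a9, Hnmt, Osbpl5 and Cfd). DESeq2 called 344 interactions, the 117 among them, and 656 diet effects in KO. RLE scaling gave 116 interactions, upper quartile scaling 122, no filter 111, the stricter filter 118 and limma voom 97. With 1 library left out the interaction count ran from 11 to 136, diet effects in WT from 1100 to 2264 and in KO from 157 to 776, and genotype effects from 1152 to 2788 on chow and from 2042 to 2834 on HFCF. The slope of the KO on the WT diet effect ran from 0.254 to 0.31 with 1 library left out and was 0.246 without the filter. Sqle, not called under any setting, had an interaction of 0.03 by limma voom and from -0.29 to 0.29 with 1 library left out. The cause of these changes was not tested. Replicate numbers recur across groups. Same-numbered libraries deviated together above a correlation of 0.1 in 5 of 18 pairs (range -0.20 to 0.229), and 7 of 12 libraries correlated best with their own number. These values are mixed and cannot decide whether the numbers pair the samples, and the main fit did not use the numbers. With the replicate block there were 97 interactions, 75 of them among the 117, 1813 diet effects in WT and 386 in KO, 2113 genotype effects on chow and 2673 on HFCF, and a slope of 0.299. Of 74 gene-level results, 16 were no longer called with the block and 2 newly were. Depth limits low genes, since no removed gene had over 147 counts in all 12 libraries.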
